A study of Mus musculus with 20 samples.

Results

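RNA sequencing libraries of FIPs and APCs, 2 stromal populations that were taken by flow cytometry from gonadal white fat of control mice, were compared across families of transcription factors, surface receptors, secreted factors, channels and transporters, and noncoding RNAs. The comparison took in the 5 control FIP libraries and the 5 control APC libraries, 10 of the 20 libraries of the series. The libraries were chosen by their labels alone, so no expression value entered the choice. FIPs, the fibro-inflammatory progenitors, were sorted as CD45-negative, CD31-negative, PDGFRβ-positive and LY6C-positive cells. APCs, the adipogenic precursor cells, were CD45-negative, CD31-negative and PDGFRβ-positive, and carried neither LY6C nor CD9. All donors were male, 8 weeks of age in the labels, housed at 30 °C and fed for 1 month on a high-fat diet (60% of calories). Controls are given in the labels only as control mice, beside Mural-Zfp423 transgenic animals, a line named for expression of the factor Zfp423 in mural cells. The other 10 libraries, from animals labelled transgenic and sorted through the same gates, give the same contrast in other samples. They did not enter the control means, but the fit took its variance and its filter on low values from all 20 libraries. Each library pooled RNA of 2 mice. With 10 mice per genotype, the FIP and APC pools must share animals. Which pools do so is not stated in the sources used here, so the tests took the libraries as independent.

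Perivascular cells that express PDGFRβ include progenitors of white fat. APCs are known as the cells among them that readily become adipocytes. FIPs are known for resisting adipocyte differentiation, for secreting inflammatory and matrix proteins, and for resembling the interstitial progenitors that lie in the connective tissue sheaths of fat. Values below are log2 CPM (the base 2 logarithm of a gene's count scaled to the library total), in which a CPM of 1 or less is listed as 0. Differences are FIP minus APC in log2 units, called at an adjusted p (limma, Benjamini-Hochberg) below 0.05 over all 17435 genes tested, and intervals are 95% intervals of the difference.

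Estimated depth was 6.76 to 8.22 megareads in the FIP libraries and 7.59 to 8 in the APC libraries. Ly6c1, which encodes part of the LY6C antigen of the gate, was higher in FIPs (1.71), as was Cd9 (1.54), and Pdgfrb was somewhat lower (-0.45). CPM per kb below is CPM divided by the merged exon length in kilobases, the scale on which levels of different genes are compared. Pdgfrb, for example, had 89.5 CPM per kb in FIPs and 122 in APCs. All 9 markers of interstitial progenitors were higher in FIPs, but they include Ly6c1, for which the gate itself selects. Of 9 preadipocyte markers 7 were lower, with 1 higher. Marker genes of other cells and tissues were lower in FIPs for most lists. This held for 7 of 7 kidney tubule genes (summed 97 to 110 CPM in FIPs, 143 to 434 in APCs), 7 of 7 skeletal muscle genes (271 to 292 against 449 to 935), 6 of 6 erythroid genes (451 to 522 against 805 to 1544) and 10 of 10 mural genes (460 to 499 against 841 to 1167). It also held for 5 of 5 epithelial genes (14.4 to 17.6 against 24.2 to 72.7), 4 of 5 liver genes (6.54 to 10.8 against 16.6 to 52.9), 11 of 12 endothelial genes, with 1 higher (572 to 758 against 675 to 853), 7 of 8 mesothelial genes (179 to 263 against 223 to 255) and 3 of 6 Schwann cell genes (20.6 to 26.6 against 30.6 to 55.9). Only 2 of 13 macrophage and leukocyte genes were lower (225 to 410 against 286 to 475), and of 5 brain neuron genes 2 were lower and 1 higher (40.1 to 43.9 against 45.1 to 49.2). Epcam, Fga, Fgb, Sox10 and Foxd3 were listed at 0 in all 5 FIP libraries. Foxd3 was at 0 in all 5 APC libraries as well, and neither Foxd3 nor Fgb was tested. Sox10 missed the threshold (adjusted p = 0.0507). APC replicates 3, 4 and 5 stood apart, with kidney scores (the mean log2 CPM of the list) of 4.38, 5.54 and 4.91 against 3.89 and 3.72 in replicates 1 and 2. Results that can rest on these libraries are therefore also given with APC replicates 1 and 2 alone. They are also given with the kidney and muscle scores of each library as covariates. Both settings were chosen after the data were seen. With 2 control APC libraries in place of 5 the tests have less power. A call lost in that setting does not show that the difference is absent. How much of the FIP and APC differences the other tissues account for was not tested.

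**Figure D1:**
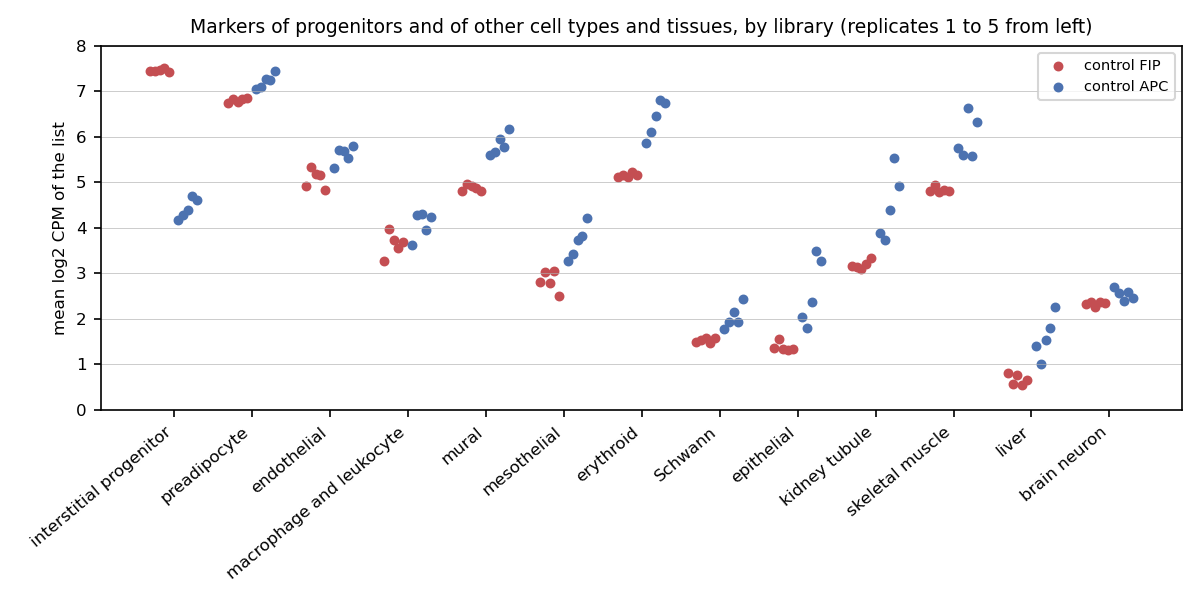
Mean log2 CPM of each marker list (vertical axis) in each of the 5 control FIP and 5 control APC libraries, points from left to right being replicates 1 to 5. In the kidney tubule list the APC libraries range from 3.72 to 5.54, and every FIP library lies below them.

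The 5 classes of genes differed between the populations in different proportions. Over all tested genes, 3422 (19.6%) were higher in FIPs and 4866 (27.9%) were lower, 47.5% in either direction. Secreted factors went the other way, with 112 of 314 tested members (35.7%) higher and 85 (27.1%) lower. That contrast in direction depended on the scaling. With each library centred on its median, 36.9% of secreted factors were higher and 23.6% lower. All tested genes then leaned the same way, at 23.9% and 21.6%. Among surface receptors 104 of 414 (25.1%) were higher and 168 (40.6%) lower. Channels and transporters had 98 of 553 (17.7%) higher and 263 (47.6%) lower. Transcription factors were called less often than all tested genes, 127 of 776 (16.4%) being higher and 188 (24.2%) lower. That did not hold on the lower side with the kidney and muscle scores as covariates. In that fit 11.3% were higher and 15.3% lower, against 14.1% and 11.1% of all tested genes. The lean of transcription factors also turned with the scaling. With each library centred on its median, 168 (21.6%) were higher and 133 (17.1%) lower. After quantile normalization the counts were 164 and 168. Noncoding RNAs were the class called least often (37.8%) and were seldom higher in FIPs, 106 of 1529 (6.93%), against 472 (30.9%) lower. Low levels limit what this class can show, as 16681 of its 18694 listed genes were at 0 in all 10 control libraries. These shares describe the lists, and none was tested against the other genes.

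The classes also differed in the sizes of the differences. The median absolute difference was 0.18 log2 units in transcription factors, 0.46 in secreted factors, 0.48 in surface receptors, 0.41 in channels and transporters, 0.32 in noncoding RNAs and 0.22 over all genes. A difference beyond 1 log2 unit was seen in 28.3% of secreted factors and 5.67% of transcription factors, against 8.28% of all tested genes. The 5 FIP libraries all lay above the 5 APC libraries for 95 secreted factors and below them for 54; over all tested genes the shares without overlap were 14.6% above and 16.7% below. In summed CPM, secreted factors came to 30129 to 31936 CPM in FIPs and 26497 to 28341 in APCs, channels and transporters 26549 to 27255 against 28894 to 29972, and transcription factors 42236 to 43188 against 41465 to 44287. The first 2 of these ranges do not overlap and the last does. In bulk libraries fewer cells that express a gene and less RNA of it per cell cannot be told apart.

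**Figure D2:**
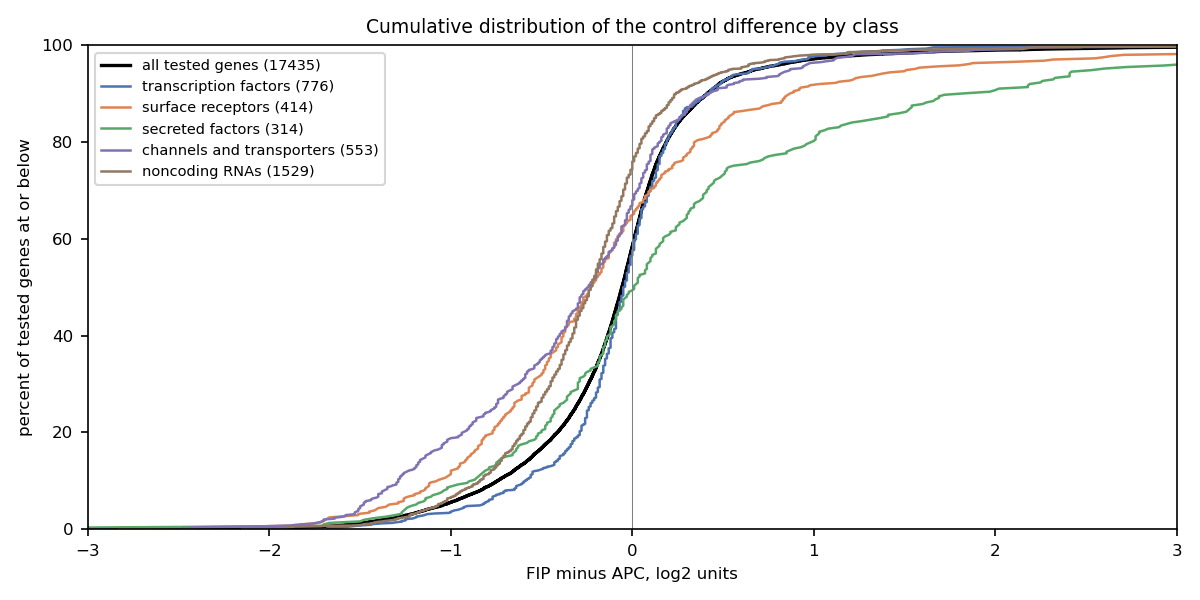
Cumulative share of tested genes (vertical axis, percent) at or below each FIP minus APC difference (horizontal axis, log2 units) in the control libraries, 1 line per class and a black line for all 17435 tested genes. The secreted factors reach far to the right, the channels and transporters are shifted to the left, and the transcription factors rise most steeply around 0.

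The lower side of these counts was the less stable one. With APC replicates 1 and 2 as the only control APC libraries, 2750 genes were higher and 2827 lower, and 56 secreted factors, 109 receptors, 146 channels and transporters and 239 noncoding RNAs were lower. Those counts came to 17.8, 26.3, 26.4 and 15.6% of the tested members, against 16.2% of all tested genes called lower in that setting. With the kidney and muscle scores as covariates, 2467 genes (14.1%) were higher and 1944 (11.1%) lower. In that fit 82 secreted factors (26.1%) were higher and 40 (12.7%) lower, and for channels and transporters the counts were 62 (11.2%) and 99 (17.9%). Receptors no longer leaned to APCs, with 82 (19.8%) higher and 75 (18.1%) lower. Transcription factors had 88 (11.3%) higher and 119 (15.3%) lower. For noncoding RNAs the counts were 61 (3.99%) and 166 (10.9%), the lower share being close to that of all tested genes. Centring each library on its median, which moved the split of calls, gave 4165 genes higher (52.5% of calls, against 41.3%) and 3774 lower, and with the 2 scores as covariates the share was 55.9%.

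**Figure D3:**
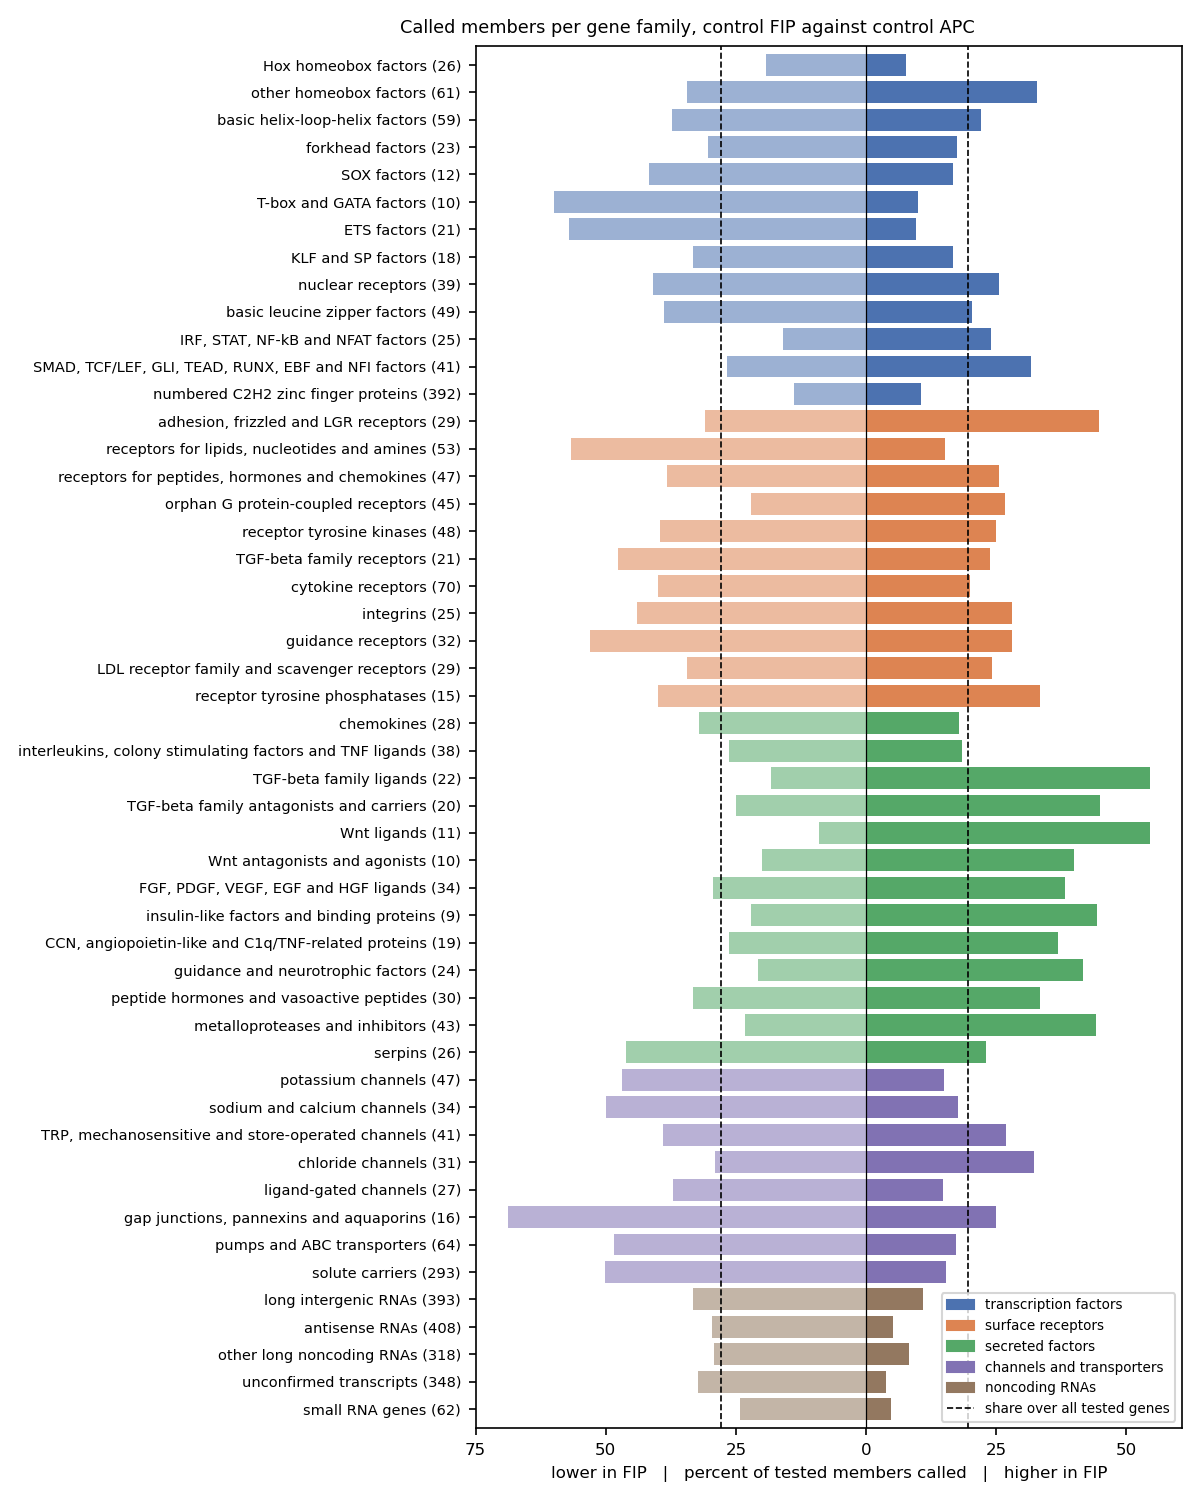
Percent of the tested members of each gene family (number tested in parentheses) called higher in FIPs (dark bars, right) or lower (pale bars, left) in control libraries, limma adjusted p below 0.05. Dashed lines mark the shares over all tested genes, 19.6% higher and 27.9% lower; Wnt and TGF-beta family ligands extend farthest to the right, and gap junctions, T-box and GATA factors and ETS factors farthest to the left.

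Transcription factors bind DNA and set which genes a cell can use, and 776 of the 1051 listed passed the filter on low values. Family counts here and below stand beside 19.6% higher and 27.9% lower over all tested genes. Of basic helix-loop-helix factors, which bind DNA as pairs, 13 of 59 (22%) were higher in FIPs and 22 (37.3%) lower. Arnt2, a partner subunit for factors of the bHLH-PAS group, differed most. Arnt2 stood at 5.62, 5.53, 5.18, 5.95 and 5.30 log2 CPM in FIP replicates 1 to 5 and at 1.07, 0.85, 1.86, 1.73 and 1.87 in APC replicates 1 to 5. Every FIP library lay far above every APC library. The difference was 4.04 (interval 3.56 to 4.52, adjusted p = 8.92e-12), and 4.56 against APC replicates 1 and 2 alone. Tcf24 was higher by 2.40. Heyl, a target and effector of Notch signalling, went the other way. Heyl values were 4.88, 5.03, 5.25, 5.32 and 5.10 log2 CPM in FIPs and 6.60, 6.53, 6.29, 6.53 and 5.96 in APCs. The groups did not overlap, at a difference of -1.27 (interval -1.54 to -0.99, adjusted p = 1.11e-07). Tcf15, a factor of somites that endothelial cells of fat and muscle also carry, was lower (-1.19). Myc, the member with the highest CPM per kb in both populations (124 and 121), had a difference of 0.04 (interval -0.07 to 0.15) that missed the threshold (adjusted p = 0.587).

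Homeobox factors, the patterning genes of the embryo, were split evenly, with 20 of 61 tested members outside the Hox clusters higher and 21 lower. Lmx1a, a LIM homeobox factor best known from midbrain neurons, was nearly absent from APCs. Lmx1a measured 2.65, 2.66, 2.05, 2.96 and 2.06 log2 CPM in the 5 FIP libraries and 0.0, 0.04, 0.0, 0.0 and 0.0 in the 5 APC libraries. A single APC library was above 0. The difference was 2.47 (interval 2.16 to 2.78, adjusted p = 2.17e-11), which understates the change because a listed 0 stands for any CPM up to 1. En1, which marks a lineage of dermal fibroblasts, was higher by 1.48, and Alx4, a factor of limb and skull patterning, by 1.08. Gsc, named for its role in the gastrula organizer, was at 0.56, 0.66, 0.56, 0.66 and 0.0 log2 CPM in FIPs and 2.66, 1.95, 1.75, 2.20 and 2.20 in APCs. Its difference was -1.66 (interval -1.99 to -1.34, adjusted p = 2.67e-08), with no overlap. Prrx1, a factor of mesenchyme, had the highest CPM per kb of the family in both populations and was higher by 0.35. Of the 26 tested Hox genes 2 (7.69%) were higher and 5 (19.2%) lower, smaller shares than over all tested genes. Lower members were 3 without APC replicate 2 or without FIP replicate 1. Hoxb7 was higher by 0.81 and Hoxa3 lower (-0.34). Hoxc8, the Hox gene with the highest CPM per kb, measured 24.7 and 25.2 CPM per kb, a log2 difference of -0.02 (interval -0.12 to 0.07) that missed the threshold. Hoxa9 was called lower (-1.19), but its difference was -0.54 (adjusted p = 0.294) against APC replicates 1 and 2 alone.

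Nuclear receptors, which respond to steroids, lipids and other small ligands, had 10 of 39 members higher and 16 lower. The NR4A group, orphan receptors induced within minutes of many stimuli, was higher throughout. Nr4a2 stood at 5.96, 5.79, 5.61, 5.86 and 5.39 log2 CPM in FIP replicates 1 to 5 and at 4.01, 4.58, 4.55, 4.13 and 3.74 in APC replicates 1 to 5. Nr4a3 values were 8.54, 8.31, 8.30, 8.42 and 7.84 log2 CPM in FIPs and 7.25, 7.41, 7.31, 7.25 and 6.83 in APCs. Neither gene had overlapping groups. The differences were 1.52 for Nr4a2 (interval 1.21 to 1.83, adjusted p = 5.05e-08) and 1.07 for Nr4a3 (interval 0.84 to 1.30, adjusted p = 1e-07). Nr4a1, the nuclear receptor with the highest CPM per kb in both populations (149 and 107), was higher by 0.49 (adjusted p = 4.37e-09). Nr1h4, the bile acid receptor FXR, was higher by 0.97. Thra, a thyroid hormone receptor, differed by 0.01 (interval -0.08 to 0.09). On the lower side stood Hnf4a (-1.53), a factor of liver and kidney tubule cells, and Rxrg (-1.32), a retinoid X receptor. Against APC replicates 1 and 2 alone neither was called, the differences being -0.77 (adjusted p = 0.132) and -0.85 (adjusted p = 0.106).

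Of basic leucine zipper factors, the family of AP-1, CREB and C/EBP proteins, 10 of 49 (20.4%) were higher and 19 (38.8%) lower. Creb5, a CREB and ATF family member, led the higher side. Creb5 measured 8.35, 8.10, 8.07, 8.21 and 8.01 log2 CPM in the 5 FIP libraries and 7.06, 6.89, 6.81, 6.77 and 6.42 in the 5 APC libraries. The lowest FIP library exceeded the highest APC library by almost 1 log2 unit. Its difference was 1.36 (interval 1.19 to 1.53, adjusted p = 2.72e-11). Bach2 (0.96) and Nfil3 (0.66), both repressors, were also higher. Hlf, a PAR-domain factor under circadian control, was lower (-1.15), as was Cebpg (-0.43). Cebpa, a driver of adipocyte differentiation, measured -0.70 in the main comparison and -0.19 (adjusted p = 0.102) with the kidney and muscle scores as covariates. Jun, the member with the most counts among those that missed the threshold, differed by -0.09 (interval -0.20 to 0.01).

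KLF and SP factors had 3 of 18 members (16.7%) higher and 6 (33.3%) lower (3 lower without APC replicate 3 or without FIP replicate 5). Klf3, a repressor that recruits CtBP, was higher. Klf3 stood at 7.52, 7.65, 7.55, 7.64 and 7.54 log2 CPM in FIP replicates 1 to 5 and at 6.79, 6.84, 6.92, 6.83 and 6.81 in APC replicates 1 to 5. The 2 sets of libraries were tight and apart, the difference being 0.74 (interval 0.66 to 0.83, adjusted p = 5.06e-12). Klf16 and Klf10 were higher by 0.66 and 0.43. Klf15, a factor of adipocyte and muscle metabolism, was lower (-0.99), as was Klf9 (-0.34). Klf4, with the highest CPM per kb of the family, had 202 CPM per kb in FIPs and 203 in APCs, and a log2 difference of -0.01 (interval -0.11 to 0.09).

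T-box and GATA factors were mostly lower, 6 of 10, with 1 higher. Tbx2, a repressor that patterns heart and limb, was the clearest. Tbx2 values were 3.70, 3.84, 3.65, 3.67 and 3.48 log2 CPM in FIPs and 5.02, 5.13, 5.08, 5.26 and 5.02 in APCs. No library of either population reached the range of the other, and the difference was -1.43 (interval -1.57 to -1.29, adjusted p = 4.7e-13). Gata6 was the member that was higher (0.28, adjusted p = 0.00025). ETS factors also leaned to APCs, with 12 of 21 lower and 2 higher (4 higher without APC replicate 2). Etv4, a factor downstream of FGF receptors, was lower (-1.30, adjusted p = 6.45e-07), as was the related Etv1 (-0.64). Elf4 (0.66) and Gabpa (0.20), a regulator of mitochondrial genes, were the 2 that were higher. Fli1, which endothelial and blood cells use, was lower (-0.77), and with the kidney and muscle scores as covariates its difference was -0.47 (adjusted p = 0.0556). Endothelial markers moved the same way as Fli1, and their part in it was not tested.

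Sox4, a SOX factor of many progenitor cells, was higher. Sox4 measured 6.0, 6.19, 6.02, 6.23 and 6.21 log2 CPM in the 5 FIP libraries and 4.61, 5.09, 5.37, 5.23 and 5.36 in the 5 APC libraries. The lowest FIP library was above the highest APC library, and the difference was 1.0 (interval 0.75 to 1.25, adjusted p = 9.11e-07). SOX factors as a family had 2 of 12 (16.7%) higher and 5 (41.7%) lower. Sox6 was called lower (-1.27), but it was -0.80 (adjusted p = 0.0926) against APC replicates 1 and 2. Sox9, a cartilage factor, differed by -0.18 (interval -0.40 to 0.04) and missed the threshold over all control libraries; it was -0.42 (adjusted p = 0.00242) against APC replicates 1 and 2 alone. Forkhead factors were called about as often as all tested genes, 4 of 23 (17.4%) higher and 7 (30.4%) lower (4 lower without APC replicate 2 or 4). Their differences were small, with a median absolute value of 0.15 against 0.22 over all genes. Foxk1, a regulator of starvation responses, was lower (-0.26) without overlap. Foxo3, the forkhead gene with the highest CPM per kb, differed by 0.01 (interval -0.10 to 0.13).

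Nuclear effectors of signalling pathways were split. Rbpj, the DNA-binding effector of Notch, was higher in FIPs. Rbpj stood at 8.05, 8.05, 8.11, 8.11 and 8.0 log2 CPM in FIP replicates 1 to 5 and at 7.34, 7.36, 7.33, 7.34 and 7.22 in APC replicates 1 to 5. The libraries spread over 0.11 log2 units in FIPs and 0.14 in APCs, and the difference was 0.75 (interval 0.68 to 0.82, adjusted p = 1.82e-13). Glis3, a GLI-similar factor, was higher by 0.64. Tead4, a partner of YAP, was lower. Tead4 values were 0.68, 1.07, 0.05, 1.21 and 0.97 log2 CPM in FIPs and 2.36, 2.66, 2.21, 2.28 and 2.42 in APCs. The groups did not overlap, and the difference was -1.59 (interval -1.99 to -1.19, adjusted p = 1.01e-06). Ebf3 was lower (-0.60). Of the 41 tested members of this family, 13 were higher and 11 lower. Nfic, which missed the threshold, differed by 0.03 (interval -0.04 to 0.09). Among IRF, STAT, NF-kB and NFAT factors 6 of 25 (24%) were higher and 4 (16%) lower (9 lower without APC replicate 5). Irf7, the master factor of the interferon response, was higher (0.97, adjusted p = 4.26e-07), while Irf8, a factor of myeloid cells, and Stat5a, which acts below cytokine and hormone receptors, were lower (-0.65 and -0.40). Numbered zinc finger proteins, the largest family, moved seldom, 41 of 392 (10.5%) higher and 54 (13.8%) lower. Zfp365, a protein of genome stability, was among those that did. Zfp365 measured 5.69, 5.79, 5.42, 5.50 and 5.62 log2 CPM in the 5 FIP libraries and 4.45, 4.04, 3.81, 3.42 and 4.22 in the 5 APC libraries. The nearest FIP and APC libraries were 0.97 log2 units apart, with a difference of 1.62 (interval 1.34 to 1.89, adjusted p = 2.88e-09). Zfp385a, which had the highest CPM per kb of that family in FIPs, was higher by 0.64, and Zbtb16, which had it in APCs, was lower (-0.34).

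Surface receptors decide which outside signals a cell can read, and 414 of 638 listed passed the filter. Their family counts, too, stand beside 19.6% higher and 27.9% lower over all tested genes. Cytokine receptors had 14 of 70 members higher and 28 lower. Tnfrsf11b encodes osteoprotegerin, a soluble decoy receptor that binds the osteoclast factor RANKL. Tnfrsf11b stood at 7.07, 7.01, 6.99, 7.04 and 7.20 log2 CPM in FIP replicates 1 to 5 and at 2.12, 3.17, 3.36, 2.73 and 3.26 in APC replicates 1 to 5. APC libraries were lower and more scattered, and the difference was 4.13 (interval 3.75 to 4.52, adjusted p = 2.09e-13), 17.6-fold. Il1rl1, the receptor ST2 for interleukin 33, was likewise higher. Il1rl1 values were 5.31, 5.05, 5.25, 5.0 and 6.49 log2 CPM in FIPs and 1.07, 2.37, 1.64, 1.55 and 2.62 in APCs. FIP replicate 5 stood above the other FIP libraries, and the difference was 3.57 (interval 3.01 to 4.13, adjusted p = 8.21e-10).

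Receptors for the interleukin 6 family of cytokines are built from shared and specific chains. Cntfr, the receptor chain that binds ciliary neurotrophic factor, was lower in FIPs. Cntfr measured 3.16, 2.89, 2.66, 2.90 and 2.99 log2 CPM in the 5 FIP libraries and 5.23, 5.07, 4.75, 4.30 and 4.44 in the 5 APC libraries. The groups did not overlap, at -1.84 (interval -2.22 to -1.46, adjusted p = 6.71e-08). Lifr, the signalling chain for leukemia inhibitory factor, was lower too. Lifr stood at 7.02, 7.05, 7.24, 7.21 and 7.25 log2 CPM in FIP replicates 1 to 5 and at 8.33, 8.42, 8.41, 8.56 and 8.31 in APC replicates 1 to 5. The 2 ranges were about 1 log2 unit apart, and the difference was -1.25 (interval -1.39 to -1.12, adjusted p = 2.13e-12). Il6st, the shared chain gp130, had 58.1 and 57.9 CPM per kb in FIPs and APCs and a log2 difference of 0.01 (interval -0.08 to 0.09) that missed the threshold; with the kidney and muscle scores as covariates it was -0.16 (adjusted p = 0.0277). Prlr, the prolactin receptor, was lower (-1.23).

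Receptors for lipids, nucleotides and amines were mostly lower, 30 of 53, with 8 higher. Those that were higher included Adra1b, an α1 adrenergic receptor that couples to calcium release. Adra1b values were 5.99, 5.81, 5.74, 5.60 and 5.51 log2 CPM in FIPs and 3.52, 2.47, 1.91, 1.73 and 1.77 in APCs. APC replicate 1 was the highest of its group and still far below the FIP libraries. The difference was 3.45 (interval 2.83 to 4.07, adjusted p = 8.44e-09), and 2.73 against APC replicates 1 and 2 alone. Htr2a, a serotonin receptor of the same coupling class, followed. Htr2a measured 4.32, 4.31, 4.43, 4.51 and 4.60 log2 CPM in the 5 FIP libraries and 0.98, 0.74, 1.91, 1.12 and 1.65 in the 5 APC libraries. The gap between the groups was larger than the spread in either, with a difference of 3.15 (interval 2.75 to 3.56, adjusted p = 3.82e-11). Tbxa2r, the thromboxane receptor, was higher by 1.51. The lower side was led by P2ry1, a receptor for ADP. P2ry1 stood at 3.70, 3.69, 3.31, 3.48 and 3.12 log2 CPM in FIP replicates 1 to 5 and at 6.20, 5.81, 5.40, 5.63 and 5.04 in APC replicates 1 to 5. Every APC library was above every FIP library, at a difference of -2.16 (interval -2.49 to -1.82, adjusted p = 7.01e-10). Chrm3, a muscarinic receptor, was lower (-1.70), as was Ptger2, a prostaglandin E2 receptor (-1.69). S1pr3, a sphingosine-1-phosphate receptor with the highest CPM per kb of this family in both populations, differed by 0.16 (interval 0.0 to 0.31), which missed the threshold.

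Receptors for peptides, hormones and chemokines had 12 of 47 members higher and 18 lower. The atypical chemokine receptors, which bind chemokines without the usual G protein signal and remove them from the surroundings, were among the higher ones. Ackr1 values were 5.75, 5.56, 5.52, 5.64 and 5.20 log2 CPM in FIPs and 2.36, 2.47, 2.46, 2.42 and 2.28 in APCs. Ackr2 measured 6.57, 6.55, 6.63, 6.80 and 6.45 log2 CPM in the 5 FIP libraries and 4.48, 4.10, 3.79, 4.21 and 3.44 in the 5 APC libraries. Ackr3 stood at 8.44, 8.42, 8.49, 8.39 and 8.26 log2 CPM in FIP replicates 1 to 5 and at 7.25, 7.22, 6.94, 7.06 and 6.44 in APC replicates 1 to 5. None of the 3 had overlapping groups. The differences were 3.14 for Ackr1 (adjusted p = 1.07e-13), 2.60 for Ackr2 (adjusted p = 2.33e-12) and 1.42 for Ackr3 (adjusted p = 6.31e-10). Ackr3 had the highest CPM per kb of this family in FIPs, at 101. Glp2r, the receptor for the gut hormone GLP-2, was higher by 2.64 (interval 2.36 to 2.93, adjusted p = 2.18e-12).

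Hormone receptors on the lower side included that of corticotropin, which stimulates lipolysis in mouse adipocytes. Mc2r values were 1.27, 1.53, 0.83, 1.87 and 1.78 log2 CPM in FIPs and 3.03, 2.97, 3.09, 3.16 and 3.41 in APCs. The groups did not overlap for Mc2r, at -1.68 (interval -2.03 to -1.32, adjusted p = 7.7e-08). Avpr1a, a vasopressin receptor of vessels, was lower. Avpr1a measured 5.91, 5.80, 5.77, 5.67 and 5.48 log2 CPM in the 5 FIP libraries and 7.40, 7.14, 6.88, 6.86 and 6.63 in the 5 APC libraries. The ranges were apart, and the difference was -1.26 (interval -1.49 to -1.03, adjusted p = 1e-08). Bdkrb2, a bradykinin receptor, was lower (-1.83). Adcyap1r1, the receptor of the neuropeptide PACAP and the member with the highest CPM per kb in APCs (62), was lower (-0.83, adjusted p = 2.8e-06).

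Adhesion, frizzled and LGR receptors were more often higher than lower, 13 and 9 of 29. Adgrg2, an adhesion receptor best known from the epididymis, led. Adgrg2 stood at 6.94, 6.79, 6.68, 6.98 and 6.46 log2 CPM in FIP replicates 1 to 5 and at 4.73, 4.55, 4.38, 4.43 and 4.43 in APC replicates 1 to 5. The groups were separated by well over 1 log2 unit, with a difference of 2.27 (interval 2.01 to 2.52, adjusted p = 3.51e-12). Adgrd1, the member with the highest CPM per kb in FIPs (77.4), was higher by 1.12, and Fzd2, a Wnt receptor, by 0.98. Adgre5 (CD97) was lower (-1.11). Orphan receptors had 12 of 45 (26.7%) higher and 10 (22.2%) lower. Mrgprg, of a family known from sensory neurons, was listed at 0 in all 5 APC libraries. Its values in the FIP libraries were 4.99, 5.30, 5.80, 5.95 and 4.24 log2 CPM. Gprc5a was higher by 2.32 and Gpr182, which takes up chemokines in endothelial cells, was lower (-1.59).

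Receptor tyrosine kinases, the receptors of most growth factors, had 12 of 48 members higher and 19 lower. Epha3, an ephrin receptor, was higher by 1.50. Tek, the angiopoietin receptor, was higher by 0.83 (adjusted p = 1.05e-10), the single endothelial marker that was, while 11 of the 12 were lower. Mertk, a receptor for apoptotic cell uptake, was lower. Mertk values were 4.95, 4.79, 4.72, 5.09 and 4.85 log2 CPM in FIPs and 6.34, 6.14, 6.13, 6.21 and 6.04 in APCs. Its groups were apart at a difference of -1.29 (interval -1.44 to -1.14, adjusted p = 7.96e-12). Axl, of the same subfamily and the kinase with the highest CPM per kb in FIPs (143 against 101), was higher by 0.50 (adjusted p = 3.58e-09). Pdgfra, a kinase of mesenchymal progenitors that missed the threshold, differed by 0.10 (interval 0.0 to 0.20).

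Receptors of the TGF-beta and GDNF families had 5 of 21 higher and 10 lower. Gfra2, the receptor for neurturin, was higher. Gfra2 measured 5.44, 5.24, 5.03, 5.36 and 5.38 log2 CPM in the 5 FIP libraries and 2.12, 3.11, 2.46, 2.28 and 2.93 in the 5 APC libraries. The FIP range lay 1.92 log2 units above the APC range, with a difference of 2.71 (interval 2.25 to 3.17, adjusted p = 2.88e-09). Tgfbr2 and Tgfbr1, the 2 signalling chains of the TGF-beta receptor, were higher by 0.51 and 0.49. Acvr2b, an activin receptor, was lower (-1.0). Acvr1c, the receptor ALK7 of adipocytes, was called lower (-1.12) but was -0.71 (adjusted p = 0.137) against APC replicates 1 and 2.

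Integrins, which hold cells to the matrix, had 7 of 25 higher and 11 lower. Itgb3, the β chain of a vitronectin receptor, was higher. Itgb3 stood at 7.48, 7.29, 7.33, 7.54 and 7.62 log2 CPM in FIP replicates 1 to 5 and at 4.98, 5.33, 5.53, 5.51 and 5.43 in APC replicates 1 to 5. The groups were apart and the difference was 2.10 (interval 1.89 to 2.31, adjusted p = 6.51e-13). The collagen-binding chains were divided. Itga2 (1.85) and Itga11 (0.82) were higher, and Itga1 was lower (-1.15). Itga8, a chain of smooth muscle and other mesenchyme, was lower (-1.71). Itgb1, their common β chain, had a difference of 0.01 (interval -0.06 to 0.09).

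Guidance receptors, which steer axons and migrating cells, had 9 of 32 higher and 17 lower. Unc5c, a netrin receptor, was close to absent from APCs. Unc5c values were 4.33, 4.60, 4.11, 4.43 and 4.41 log2 CPM in FIPs and 0.53, 0.0, 0.70, 0.0 and 0.0 in APCs. Of the APC libraries 3 were at 0, and the difference was 4.13 (interval 3.66 to 4.60, adjusted p = 5.29e-12). Robo1, a Slit receptor, was higher by 0.97 and Cdon, a coreceptor for hedgehog, by 0.89. Hhip, which binds hedgehog and holds it off, was lower. Hhip measured 0.10, 0.0, 0.05, 0.28 and 0.0 log2 CPM in the 5 FIP libraries and 2.83, 3.11, 2.86, 3.33 and 2.46 in the 5 APC libraries. FIP libraries were at or near 0, and the difference was -2.83 (interval -3.22 to -2.44, adjusted p = 1.19e-10). Notch1 was lower. Notch1 stood at 6.37, 6.65, 6.64, 6.62 and 6.84 log2 CPM in FIP replicates 1 to 5 and at 7.61, 7.71, 7.81, 7.74 and 7.84 in APC replicates 1 to 5. The ranges did not meet, the difference being -1.12 (interval -1.30 to -0.94, adjusted p = 1.26e-09). Notch3, a mural cell marker, was lower (-1.26); all 10 mural markers were lower, and their part in it was not tested. Plxnb2, a semaphorin receptor, differed by 0.04 (interval -0.04 to 0.12) and missed the threshold.

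Scavenger and LDL receptor family members had 7 of 29 (24.1%) higher and 10 (34.5%) lower. Scara3, a scavenger receptor that guards against oxidative damage, was higher with little spread. Scara3 values were 8.67, 8.72, 8.77, 8.65 and 8.70 log2 CPM in FIPs and 7.46, 7.40, 7.34, 7.28 and 7.41 in APCs. Within each group the libraries differed by at most 0.18 log2 units, and the difference was 1.32 (interval 1.24 to 1.41, adjusted p = 8.39e-16). Lrp1, which clears many ligands and was the member with the highest CPM per kb in both populations (151 and 143), had a log2 difference of 0.08 (interval -0.02 to 0.18). Sort1, a sorting receptor, was lower (-0.95). Lrp2, the megalin of kidney tubules, was called lower (-1.42) but was -0.65 (adjusted p = 0.0785) against APC replicates 1 and 2. Receptor tyrosine phosphatases had 5 of 15 higher and 6 lower. Ptprj (CD148) was higher. Ptprj measured 7.15, 7.05, 6.96, 7.16 and 7.09 log2 CPM in the 5 FIP libraries and 5.03, 5.27, 5.39, 5.32 and 5.42 in the 5 APC libraries. The groups were narrow and apart, by 1.80 (interval 1.66 to 1.93, adjusted p = 1.09e-14). Ptprf was higher by 1.67 and Ptprn by 1.58, while Ptprk was lower (-1.05).

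Secreted factors carry signals from these cells to their neighbours, and 314 of 527 listed passed the filter. The promoters of 3 genes are shown first, Cxcl3 and Angpt4, which were higher in FIPs, and Agt, which was lower, because they are among the few members with a TATA box at the usual distance. Each line gives the 250 bases before the RefSeq start site (GRCm38.p6), 5′ to 3′ on the gene's own strand, with matches of TATAAA and GGGCGG on either strand in capitals. The windows lie at chr5:90785851-90786100 on the plus strand for Cxcl3, chr2:151910957-151911206 on the plus strand for Angpt4 and chr8:124569707-124569956 on the minus strand for Agt.
Cxcl3: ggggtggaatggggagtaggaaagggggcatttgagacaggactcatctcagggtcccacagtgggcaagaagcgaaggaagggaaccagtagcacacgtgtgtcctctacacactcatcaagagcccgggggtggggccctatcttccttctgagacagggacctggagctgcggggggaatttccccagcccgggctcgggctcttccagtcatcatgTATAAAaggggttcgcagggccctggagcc
Angpt4: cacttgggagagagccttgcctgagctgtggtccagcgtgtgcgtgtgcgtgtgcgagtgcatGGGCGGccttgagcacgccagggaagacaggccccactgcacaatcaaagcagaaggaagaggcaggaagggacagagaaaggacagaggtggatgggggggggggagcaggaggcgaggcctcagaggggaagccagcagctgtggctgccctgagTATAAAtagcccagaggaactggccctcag
Agt: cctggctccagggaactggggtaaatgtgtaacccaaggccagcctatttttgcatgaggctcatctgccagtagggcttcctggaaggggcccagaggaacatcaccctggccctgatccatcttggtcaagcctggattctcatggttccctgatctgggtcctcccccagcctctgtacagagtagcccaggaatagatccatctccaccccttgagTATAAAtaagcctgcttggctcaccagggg
In each of them TATAAA began 30 bases before the start. RefSeq promoters matched 95 of the 134 coding family members that were higher by more than 1 log2 unit and 146 of the 203 that were lower by more than 1. TATAAA on the gene's strand, beginning 25 to 35 bases before the start, was present in 7 of the 95 (7.37%): Cxcl3, Wnt11, Areg, Angpt4, Mmp10, Serpinb2 and Slco2a1. It was present in 5 of the 146 (3.42%), in 40 of 1556 tested coding members (2.57%), in 166 of 11680 tested genes (1.42%) and in 530 of 27025 promoters of the table (1.96%). Anywhere in the window of 300 bases, which also holds 50 bases after the start, and on either strand, it was found for 20% of the first set, 11.6% of the second, 7.82% of tested genes and 14.2% of all promoters. GGGCGG was found for 54.7%, 51.4%, 61.2% and 35.9%. These matches describe the letters in the windows and no binding was measured.

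Of Wnt ligands, lipid-modified proteins that signal through frizzled receptors over short distances, 6 of 11 tested were higher and 1 lower (2 lower without APC replicate 5), with a median difference of 1.21. Wnt2, a ligand of the canonical pathway, was far higher in FIPs. Wnt2 stood at 4.86, 4.93, 4.77, 5.11 and 5.04 log2 CPM in FIP replicates 1 to 5 and at 0.0, 0.37, 0.70, 1.12 and 0.65 in APC replicates 1 to 5. The APC libraries were at or near 0, and the difference was 4.37 (interval 3.98 to 4.77, adjusted p = 1.3e-13). Wnt16 was listed at 0 in all 5 APC libraries and at 2.56, 2.83, 2.10, 2.69 and 2.81 log2 CPM in the FIP libraries. Wnt5a, a noncanonical ligand, had 10.8 and 11.1 CPM per kb and a log2 difference of 0.01 (interval -0.31 to 0.33). Proteins that bind and modulate Wnts had 4 of 10 higher and 2 lower. Sfrp4, a soluble frizzled-related inhibitor, was higher. Sfrp4 values were 7.60, 7.66, 7.73, 7.68 and 7.86 log2 CPM in FIPs and 3.38, 3.61, 3.99, 3.64 and 4.06 in APCs. The groups were 3.54 log2 units apart at their nearest, and the difference was 3.97 (interval 3.71 to 4.23, adjusted p = 8.39e-16), 15.7-fold. Dkk3 was higher by 2.72 (interval 2.27 to 3.17, adjusted p = 2.52e-09) and Sfrp2, which had the highest CPM per kb of these in FIPs (77.2), by 1.97. Rspo3, an R-spondin that strengthens Wnt signals, was lower (-1.15). Its 5 APC values were 4.78, 4.28, 3.60, 3.67 and 3.11 and its 5 FIP values 2.85, 2.60, 2.73, 2.87 and 2.65, so that the APC libraries were widely scattered.

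TGF-beta family ligands, which include the bone morphogenetic proteins (BMPs), activins and growth differentiation factors, had 12 of 22 higher and 4 lower. Bmp7 was among the largest. Bmp7 measured 5.72, 5.40, 5.40, 5.66 and 5.40 log2 CPM in the 5 FIP libraries and 0.88, 0.85, 1.58, 2.81 and 2.24 in the 5 APC libraries. APC libraries varied widely below the FIP range. The difference was 3.84 (interval 3.16 to 4.53, adjusted p = 6.08e-09), and 4.65 against APC replicates 1 and 2 alone. Bmp6, which also regulates iron balance, was higher too. Bmp6 stood at 7.50, 7.56, 7.51, 7.56 and 7.52 log2 CPM in FIP replicates 1 to 5 and at 5.07, 5.23, 5.45, 5.42 and 5.57 in APC replicates 1 to 5. FIP libraries lay within 0.06 log2 units of each other, and the difference was 2.18 (interval 2.0 to 2.37, adjusted p = 5.42e-14). Inhba, the βA chain of activin, was higher by 1.62 (interval 1.34 to 1.90, adjusted p = 3.77e-09). Bmp4, which commits mesenchymal cells to the adipocyte lineage, went the other way. Bmp4 values were 3.64, 3.63, 3.75, 3.59 and 3.24 log2 CPM in FIPs and 4.92, 5.38, 5.48, 5.46 and 5.10 in APCs. Every APC library was above every FIP library, the difference being -1.70 (interval -1.97 to -1.43, adjusted p = 1.21e-09). Gdf10, a ligand of adipose stroma that missed the threshold, differed by -0.05 (interval -0.39 to 0.30); it was -0.55 (adjusted p = 0.00455) against APC replicates 1 and 2 alone.

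Carriers and antagonists of that family had 9 of 20 higher and 5 lower. Ltbp2, a microfibril protein of the latent TGF-beta binding family, was higher. Ltbp2 measured 7.78, 7.96, 7.50, 7.81 and 8.06 log2 CPM in the 5 FIP libraries and 5.36, 5.62, 6.22, 5.51 and 6.39 in the 5 APC libraries. The groups did not overlap, at 2.0 (interval 1.61 to 2.39, adjusted p = 2.67e-08). Kcp, a secreted modulator of BMP and TGF-beta signals, was higher by 1.51 (adjusted p = 1.56e-09). Nog encodes noggin, which binds BMP4 and BMP7 and blocks them. Nog stood at 2.05, 1.39, 1.70, 1.21 and 1.97 log2 CPM in FIP replicates 1 to 5 and at 3.22, 3.04, 3.36, 3.55 and 3.51 in APC replicates 1 to 5. It was lower in all FIP libraries, at a difference of -1.67 (interval -2.08 to -1.26, adjusted p = 6.83e-07). Fstl1, which had the highest CPM per kb in FIPs (168), was higher by 0.34, and Ltbp4, which had it in APCs (140), differed by 0.03 (interval -0.08 to 0.14).

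Growth factors of the FGF, PDGF, VEGF, EGF and HGF families had 13 of 34 higher and 10 lower, and closely related members went in opposite directions. Fgf18, a regulator of cartilage and bone, was higher. Fgf18 values were 5.74, 5.71, 5.65, 5.63 and 5.75 log2 CPM in FIPs and 2.98, 3.66, 3.58, 3.44 and 3.89 in APCs. The groups were 1.74 log2 units apart at their nearest, and the difference was 2.19 (interval 1.88 to 2.49, adjusted p = 1.62e-10). Fgf16 was listed at 0 in every APC library and at 2.68, 2.77, 3.05, 3.26 and 2.88 log2 CPM in the FIP libraries. Fgf10, a mesenchymal factor with a known part in adipogenesis, was lower. Fgf10 measured 4.90, 4.85, 4.90, 5.04 and 5.06 log2 CPM in the 5 FIP libraries and 6.54, 6.11, 6.17, 5.98 and 6.03 in the 5 APC libraries. The ranges were apart, with a difference of -1.22 (interval -1.43 to -1.01, adjusted p = 4.41e-09). Of the angiopoietins, which act on the receptor Tek, Angpt4 was higher and Angpt1 lower. Angpt4 stood at 3.70, 3.93, 3.20, 3.65 and 3.87 log2 CPM in FIP replicates 1 to 5 and at 1.98, 0.95, 1.58, 0.73 and 1.07 in APC replicates 1 to 5. Angpt1 values were 4.55, 4.75, 4.69, 4.56 and 4.54 log2 CPM in FIPs and 6.35, 5.90, 5.70, 5.60 and 5.46 in APCs. Neither had overlapping groups. The differences were 2.41 for Angpt4 (interval 1.82 to 3.0, adjusted p = 7.03e-07) and -1.18 for Angpt1 (interval -1.46 to -0.91, adjusted p = 3.12e-07). Gas6, the ligand of Axl and Mertk and the member with the highest CPM per kb in both populations, was lower (-0.30).

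Interleukins, colony stimulating factors and TNF ligands had 7 of 38 (18.4%) higher and 10 (26.3%) lower. These shares are close to those over all tested genes (19.6% and 27.9%). Csf2 encodes GM-CSF, which acts on macrophages and granulocytes. Csf2 measured 3.71, 3.34, 3.45, 3.57 and 2.81 log2 CPM in the 5 FIP libraries and 0.24, 0.0, 0.32, 0.0 and 0.0 in the 5 APC libraries. It was close to absent from APCs, and the difference was 3.26 (interval 2.92 to 3.61, adjusted p = 1.82e-12). Il11, a profibrotic cytokine of the interleukin 6 family, was higher by 2.32 (interval 1.92 to 2.71, adjusted p = 3.22e-09). Il33, the alarmin that the receptor Il1rl1 binds, was higher as well. Il33 stood at 5.74, 5.70, 6.03, 6.03 and 6.13 log2 CPM in FIP replicates 1 to 5 and at 3.52, 4.06, 4.58, 4.15 and 4.73 in APC replicates 1 to 5. The lowest FIP library was nearly 1 log2 unit above the highest APC library, and the difference was 1.72 (interval 1.38 to 2.06, adjusted p = 3.47e-08). Il15, a factor for natural killer and memory T cells, was lower. Il15 values were 2.34, 2.24, 2.49, 2.35 and 2.40 log2 CPM in FIPs and 3.55, 3.63, 3.51, 3.35 and 3.49 in APCs. The groups were narrow and apart at a difference of -1.14 (interval -1.39 to -0.89, adjusted p = 1.62e-07). Tnfsf9 and Il17d were lower (-0.82 and -0.73). Il6, the member with the highest CPM per kb in both populations (114 and 108), had a log2 difference of 0.07 (interval -0.08 to 0.22), which missed the threshold.

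Chemokines, which attract leukocytes, were called less than the class, 5 of 28 (17.9%) higher and 9 (32.1%) lower. Cxcl3, a neutrophil attractant, was higher. Cxcl3 measured 4.23, 3.87, 3.97, 4.20 and 3.20 log2 CPM in the 5 FIP libraries and 1.16, 1.80, 2.19, 1.52 and 1.15 in the 5 APC libraries. APC libraries were low and scattered, and the difference was 2.33 (interval 1.75 to 2.91, adjusted p = 7.83e-07). Cxcl2, which acts on the same receptor, was higher by 1.08. Cxcl14, a chemokine of many epithelia and of adipose stroma, was lower. Cxcl14 stood at 5.07, 4.85, 5.29, 5.33 and 5.96 log2 CPM in FIP replicates 1 to 5 and at 6.57, 6.67, 6.71, 6.80 and 6.92 in APC replicates 1 to 5. FIP replicate 5 was the highest of its group and still under every APC library, at a difference of -1.43 (interval -1.83 to -1.04, adjusted p = 3.45e-06). The chemokines with the highest CPM per kb hardly differed. Ccl7 was at 173 and 169 CPM per kb in FIPs and APCs, a log2 difference of 0.03 (interval -0.09 to 0.15), and Cxcl1 differed by 0.04 (interval -0.07 to 0.15).

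Guidance and neurotrophic factors had 10 of 24 higher and 5 lower. Sema3d, a secreted semaphorin, was higher. Sema3d values were 6.88, 7.07, 7.01, 7.12 and 6.91 log2 CPM in FIPs and 3.47, 3.33, 3.46, 2.96 and 3.30 in APCs. The gap between the groups was over 3 log2 units, and the difference was 3.69 (interval 3.44 to 3.95, adjusted p = 2.69e-15). Nptx2, a neuronal pentraxin, was higher by 4.45 (interval 4.19 to 4.71, adjusted p = 3.28e-16). Ntf3, a neurotrophin, was lower. Ntf3 measured 0.0, 1.07, 1.64, 0.0 and 0.78 log2 CPM in the 5 FIP libraries and 3.50, 3.72, 3.52, 4.07 and 3.75 in the 5 APC libraries. All APC libraries were above 3 log2 CPM and no FIP library reached 2, the difference being -3.01 (interval -3.57 to -2.46, adjusted p = 1.09e-08). Slit3, the member with the highest CPM per kb in both populations, differed by 0.03 (interval -0.07 to 0.13).

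Peptide hormones and vasoactive peptides were split evenly, 10 of 30 higher and 10 lower. Pthlh encodes parathyroid hormone-related protein, a paracrine regulator of bone and cartilage. Pthlh stood at 4.14, 3.34, 3.65, 3.63 and 3.77 log2 CPM in FIP replicates 1 to 5 and at 1.53, 0.63, 0.46, 0.0 and 0.65 in APC replicates 1 to 5. FIP libraries were all above 3 and APC libraries all below 2 log2 CPM, and the difference was 3.05 (interval 2.61 to 3.49, adjusted p = 2.58e-10). Edn1, the vasoconstrictor endothelin 1, was higher by 2.02 (interval 1.64 to 2.39, adjusted p = 1.28e-08). Cck, a gut and brain peptide, was listed at 0 in all APC libraries and at 2.42, 3.12, 1.33, 2.0 and 2.37 log2 CPM in the FIP libraries. Agt, the angiotensin precursor, was lower. Agt values were 5.90, 5.81, 5.92, 5.79 and 5.67 log2 CPM in FIPs and 7.68, 7.18, 6.97, 6.61 and 6.85 in APCs. The groups were apart, with a difference of -1.24 (interval -1.58 to -0.90, adjusted p = 2.77e-06). Nmb, the peptide neuromedin B, was lower. Nmb measured 3.42, 3.20, 3.41, 3.13 and 2.73 log2 CPM in the 5 FIP libraries and 5.57, 5.25, 4.74, 4.64 and 4.24 in the 5 APC libraries. Every FIP library was below every APC library, at a difference of -1.71 (interval -2.11 to -1.31, adjusted p = 3.33e-07). Adipoq, the adipocyte hormone adiponectin, had the highest CPM per kb of the family in APCs (117). It was called lower (-0.44), but was -0.30 (adjusted p = 0.173) against APC replicates 1 and 2 alone.

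Insulin-like factors and their binding proteins had 4 of 9 higher and 2 lower. Igfbp5, a matrix-bound carrier, was higher. Igfbp5 stood at 8.77, 8.79, 8.81, 8.93 and 8.80 log2 CPM in FIP replicates 1 to 5 and at 7.10, 6.96, 7.31, 7.36 and 7.67 in APC replicates 1 to 5. The groups were more than 1 log2 unit apart, and the difference was 1.54 (interval 1.22 to 1.86, adjusted p = 6.36e-08). Igfbp3 and Igfbp6 were higher by 1.14 and 0.49. Igf1 ranged from 7.91 to 8.23 log2 CPM in FIPs and from 7.79 to 9.51 in APCs. Its difference of -0.43 (interval -0.92 to 0.06) missed the threshold over all libraries and was -1.09 (adjusted p = 0.00112) against APC replicates 1 and 2 alone, the 2 highest APC libraries for this gene. Of CCN, angiopoietin-like and C1q/TNF-related proteins 7 of 19 were higher and 5 lower. Wisp2, a CCN protein that adipose stromal cells secrete, was higher by 1.32 and C1qtnf12 lower (-0.75). Cyr61, which had the highest CPM per kb in both populations (186 and 191), had a log2 difference of -0.04 (interval -0.14 to 0.07).

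Metalloproteases and their inhibitors had 19 of 43 higher and 10 lower. Adamts19, a secreted protease known from heart valves, was higher. Adamts19 values were 5.28, 4.89, 4.85, 5.29 and 4.90 log2 CPM in FIPs and 1.32, 1.95, 0.91, 0.49 and 0.87 in APCs. No APC library exceeded 2 log2 CPM and no FIP library was below 4, and the difference was 3.93 (interval 3.47 to 4.40, adjusted p = 9.03e-12). Adamts6 was higher by 2.42. Mmp17, a membrane-bound metalloprotease, was lower (-1.10). Adamts5, an aggrecanase that missed the threshold, differed by -0.08 (interval -0.20 to 0.03); it was -0.21 (adjusted p = 0.0147) against APC replicates 1 and 2 alone. Serpins, mostly protease inhibitors, had 6 of 26 higher and 12 lower. Serpinb1a, an intracellular inhibitor of neutrophil proteases, was higher by 2.41 (interval 2.06 to 2.75, adjusted p = 2.12e-10). Serpinb2 was higher by 1.67 and Serpina3f lower (-1.36). Serpinh1, the collagen chaperone HSP47, with the highest CPM per kb in FIPs (178), differed by 0.01 (interval -0.08 to 0.10).

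**Figure D4:**
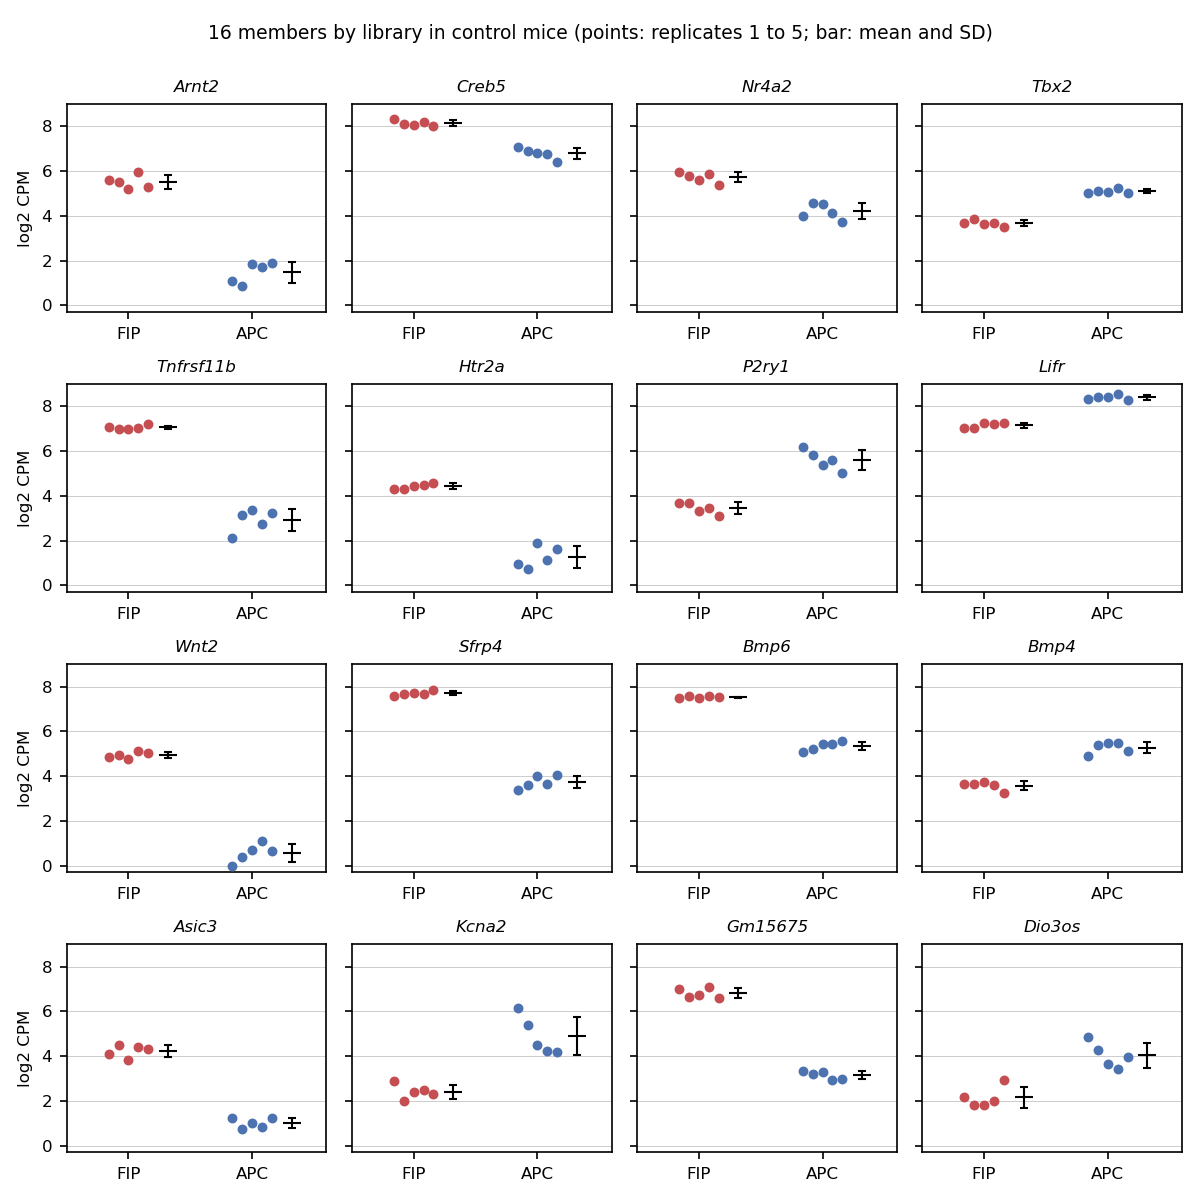
Values of 16 members (log2 CPM, vertical axis) in each of the 5 control FIP and 5 control APC libraries, with the mean and SD of each group beside the points. The groups do not overlap for any of the 16, which were picked for display after their values were seen.

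Channels and transporters set ion flow and the uptake of nutrients, and 553 of 823 listed passed the filter. The shares over all tested genes, beside which their family counts stand, are 19.6% higher and 27.9% lower. Lower members outnumbered higher ones in all families of the class but chloride channels, which had 10 of 31 higher and 9 lower. Solute carriers made up most of it, with 45 of 293 higher and 147 lower, 63 of them called and lower by more than 1 log2 unit; over all tested genes 5.51% were. On the lower side, the 3 with the largest differences among those that were called, did not overlap and reached a mean of 2 log2 CPM in APCs are genes of the kidney tubule. Slc13a1, a renal sulfate carrier, was listed at 0 in all 5 FIP libraries. Its values in APC libraries were 1.32, 1.29, 1.96, 3.16 and 2.56 log2 CPM, highest in replicates 4 and 5. Slc5a8 was at 0.0, 0.88, 0.70, 0.66 and 1.06 log2 CPM in FIPs and 1.63, 1.83, 2.58, 3.75 and 2.77 in APCs. Slc6a18 was at 1.10, 1.39, 0.70, 0.66 and 0.97 log2 CPM in FIPs and 1.78, 1.90, 2.21, 4.14 and 3.48 in APCs. Both carriers had their highest APC values in replicates 4 and 5, as the kidney score had. Against APC replicates 1 and 2 alone their differences were -1.07 (adjusted p = 0.0891) and -0.88 (adjusted p = 0.106). Slc13a1 was called in that setting (adjusted p = 1.23e-05) and with the kidney and muscle scores as covariates (adjusted p = 0.00114). Its FIP values were all listed at 0 and so have no spread, and these p-values carry little weight. APC replicates 1 and 2 also had kidney scores (3.89 and 3.72) above every FIP library (3.09 to 3.33). Using them alone therefore cannot set kidney genes aside. Skeletal muscle genes gave a like picture. Ryr1, the calcium release channel of muscle, was at 4.05, 4.16, 3.92, 4.09 and 3.81 log2 CPM in FIPs and 5.07, 5.07, 6.32, 5.04 and 6.01 in APCs. Atp2a1, the muscle calcium pump, was at 5.42, 5.23, 5.10, 5.25 and 5.33 log2 CPM in FIPs and 6.24, 6.15, 7.21, 6.27 and 6.96 in APCs. Replicates 3 and 5 of the APCs, which had the highest muscle scores (6.62 and 6.33), were also highest in these 2 genes. With the kidney and muscle scores as covariates the differences of Ryr1 and Atp2a1 were 0.03 and 0.07. The muscle score itself separated the populations, at 4.78 to 4.93 in FIPs and 5.58 to 6.62 in APCs. A fit with that score therefore removes most of any difference in muscle genes and cannot show its source. Against APC replicates 1 and 2 alone the differences of Ryr1 and Atp2a1 were -1.06 (adjusted p = 0.0301) and -0.93 (adjusted p = 0.034). Aqp3 and Aqp7, water and glycerol channels of kidney and adipocytes, were called lower (-1.47 and -1.0). Neither was called against APC replicates 1 and 2 (adjusted p = 0.451 and 0.0698). The part of kidney and muscle RNA in these differences was not tested.

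Other carriers were called in each of these settings. Slc6a12, a betaine and GABA carrier, was higher by 2.15 (interval 1.77 to 2.54, adjusted p = 6.35e-09) and Slc6a7, a proline carrier, by 1.63. Slc10a6, a carrier of sulfated steroids with the highest CPM per kb of solute carriers in APCs (112), was lower (-0.30). Slc38a2, an amino acid carrier, differed by 0.02 (interval -0.09 to 0.13) and missed the threshold.

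Pumps and ABC transporters had 11 of 64 higher and 31 lower. Abca8a, a lipid transporter with the highest CPM per kb of the family in both populations, was lower. Abca8a measured 8.98, 9.0, 9.16, 9.04 and 8.93 log2 CPM in the 5 FIP libraries and 9.81, 9.80, 9.70, 9.78 and 9.55 in the 5 APC libraries. The groups were apart at a difference of -0.71 (interval -0.83 to -0.58, adjusted p = 5.54e-09), and the level was 83 CPM per kb in FIPs and 136 in APCs. Abcc9, a regulatory subunit of KATP channels and a mural marker, was lower (-1.15). Abca4 was higher by 1.55 (adjusted p = 2.57e-07). Atp2a2, the calcium pump SERCA2 of most cells, differed by -0.03 (interval -0.10 to 0.04), and by -0.13 (adjusted p = 0.0468) with the kidney and muscle scores as covariates.

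Voltage-gated and other cation channels leaned to APCs. Potassium channels had 7 of 47 higher and 22 lower, and sodium and calcium channels 6 of 34 higher and 17 lower. Kcna2, a voltage-gated potassium channel of axons, was lower. Kcna2 stood at 2.88, 2.0, 2.41, 2.48 and 2.31 log2 CPM in FIP replicates 1 to 5 and at 6.14, 5.39, 4.49, 4.25 and 4.20 in APC replicates 1 to 5. APC replicate 1 was highest, and the groups did not overlap. The difference was -2.48 (interval -3.13 to -1.82, adjusted p = 1.89e-06), and -3.35 against APC replicates 1 and 2 alone. Kcnk5, a leak channel sensitive to pH, was the largest on the higher side. Kcnk5 values were 4.89, 4.54, 4.64, 4.82 and 4.38 log2 CPM in FIPs and 2.28, 2.40, 2.52, 3.60 and 3.02 in APCs. APC libraries were below every FIP library, at 1.89 (interval 1.50 to 2.28, adjusted p = 6.05e-08). Asic3, a proton-gated sodium channel of sensory neurons, was higher. Asic3 measured 4.11, 4.48, 3.84, 4.43 and 4.31 log2 CPM in the 5 FIP libraries and 1.24, 0.74, 1.0, 0.84 and 1.24 in the 5 APC libraries. FIP and APC libraries were 2.60 log2 units apart at their nearest, with a difference of 3.22 (interval 2.76 to 3.69, adjusted p = 2.45e-10). Cacna1c, the pore of the L-type calcium channel, was lower. Cacna1c stood at 4.88, 4.33, 4.41, 4.21 and 4.46 log2 CPM in FIP replicates 1 to 5 and at 5.97, 5.93, 5.78, 5.88 and 5.64 in APC replicates 1 to 5. Its groups did not overlap, at -1.38 (interval -1.64 to -1.13, adjusted p = 1.26e-08). Scn7a, a sodium channel that responds to salt and the member with the highest CPM per kb in both populations (60.9 and 90.6), was lower (-0.57, adjusted p = 7.14e-07). Cacng4 was lower (-1.89), with APC values from 2.32 to 4.93.

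TRP, mechanosensitive and store-operated channels had 11 of 41 higher and 16 lower. Itpr3, an IP3 receptor that releases calcium from internal stores, was higher. Itpr3 values were 6.99, 6.84, 6.76, 7.01 and 6.78 log2 CPM in FIPs and 4.81, 5.03, 5.36, 4.96 and 4.98 in APCs. The groups were well apart, with a difference of 1.85 (interval 1.64 to 2.05, adjusted p = 3.27e-12). Piezo2, the channel of touch, was higher. Piezo2 measured 4.11, 4.29, 4.05, 4.61 and 4.06 log2 CPM in the 5 FIP libraries and 2.03, 2.37, 3.13, 2.67 and 2.62 in the 5 APC libraries. APC replicate 3 came closest to the FIP range without entering it, and the difference was 1.66 (interval 1.25 to 2.07, adjusted p = 8.06e-07). Orai1, the pore of store-operated calcium entry, was higher by 0.61. Trpm6, a magnesium channel, was lower. Trpm6 stood at 1.27, 0.24, 1.64, 1.13 and 1.14 log2 CPM in FIP replicates 1 to 5 and at 3.63, 3.42, 3.28, 3.67 and 3.48 in APC replicates 1 to 5. All APC libraries were above 3 and all FIP libraries below 2 log2 CPM, at -2.41 (interval -2.91 to -1.92, adjusted p = 5.86e-08). Trpv3 was lower (-1.64). Pkd2, a polycystin with the highest CPM per kb in both populations, differed by 0.07 (interval -0.01 to 0.15).

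Among chloride channels, Ano3, of the anoctamin family, was higher. Ano3 values were 3.74, 4.09, 4.05, 4.24 and 4.18 log2 CPM in FIPs and 0.0, 0.50, 0.91, 0.61 and 1.24 in APCs. APC libraries were at or near 0, and the difference was 3.41 (interval 2.99 to 3.82, adjusted p = 1.67e-11). Subunits of the volume-regulated anion channel were divided. Lrrc8c was higher. Lrrc8c measured 7.19, 7.21, 7.0, 7.13 and 7.05 log2 CPM in the 5 FIP libraries and 5.95, 6.07, 5.78, 5.94 and 5.76 in the 5 APC libraries. Its difference was 1.22 (interval 1.09 to 1.34, adjusted p = 7.59e-13), with no overlap. Lrrc8b was higher by 0.94, while Lrrc8a, the obligatory subunit, was lower (-0.28, adjusted p = 0.000271). Ligand-gated channels had 4 of 27 higher and 10 lower. Gria3, a subunit of AMPA glutamate receptors, was lower at a difference of -0.66 (interval -0.85 to -0.47, adjusted p = 6.27e-06). Glrb, the β subunit of the glycine receptor, was listed at 0 in all APC libraries and at 1.62, 2.24, 2.60, 2.45 and 2.14 log2 CPM in the FIP libraries. Gap junction, pannexin and aquaporin genes had 4 of 16 higher and 11 lower (7 lower without APC replicate 3 or 4). Panx1, a channel that releases ATP, was higher by 0.84 and Gjb5 by 2.18.

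Noncoding genes of the table numbered 18694, of which 1529 passed the filter. The libraries were made from polyadenylated RNA, so noncoding RNAs without a tail are covered poorly. FIP libraries listed 15972 to 16171 genes above 0 and APC libraries 16484 to 17282. A stricter filter on low values, under which fewer genes were tested, kept 69.9% of the lower noncoding calls. Over all tested genes it kept 89.6% of the lower calls. Higher members were few in each type, 43 of 393 long intergenic RNAs, 21 of 408 antisense RNAs, 26 of 318 other long noncoding RNAs, 13 of 348 unconfirmed transcripts and 3 of 62 small RNA genes. Lower members were 131, 121, 93, 112 and 15. No source used here gives the strand setting of the counting, and the library kit named in the labels does not mark strand, so reads of overlapping genes cannot be told apart. Of the 1529, 578 (37.8%) overlapped an exon of a protein-coding gene. The 951 that did not had 73 higher (7.68%) and 296 lower (31.1%), shares close to those of all tested noncoding genes.

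Gm15675 was the long intergenic RNA with the largest difference towards FIPs. Gm15675 stood at 7.0, 6.63, 6.75, 7.09 and 6.61 log2 CPM in FIP replicates 1 to 5 and at 3.34, 3.19, 3.28, 2.92 and 3.0 in APC replicates 1 to 5. The groups were more than 3 log2 units apart, at 3.67 (interval 3.44 to 3.90, adjusted p = 6.05e-16). In GRCm38 it lies at chr1:130429781-130437191 on the minus strand, 1836 bases from Cd55, a complement regulator that was higher by 2.70 in the same libraries. Gm15674 (chr1:130422824-130437914, plus strand) overlaps Gm15675 and the coding gene Cd55b. It was higher by 3.54 and Cd55b by 3.39, and their reads cannot be told apart. Miat, a long RNA known from heart and retina, was higher with no coding gene nearby. Miat values were 4.10, 3.64, 3.60, 4.10 and 3.69 log2 CPM in FIPs and 0.0, 0.37, 0.46, 0.84 and 1.32 in APCs. FIP libraries were all above 3 log2 CPM, and the difference was 3.23 (interval 2.79 to 3.66, adjusted p = 7.86e-11). Miat lies at chr5:112213228-112229395 on the minus strand, 17098 bases from Cryba4, which was at 0 in all libraries.

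On the lower side stood Dio3os, which lies beside the imprinted gene Dio3 of thyroid hormone breakdown. Dio3os measured 2.18, 1.83, 1.83, 2.0 and 2.95 log2 CPM in the 5 FIP libraries and 4.85, 4.28, 3.67, 3.44 and 3.97 in the 5 APC libraries. The groups did not overlap, and the difference was -1.88 (interval -2.39 to -1.38, adjusted p = 2.05e-06). Its position is chr12:110275385-110278172 on the minus strand, 896 bases from Dio3, which was lower (-0.99). Adap2os was lower (-2.15) and overlaps Adap2, whose difference was -2.21. Gm48878, 680 bases from Avpr1a on the same strand, was lower (-1.48), beside a difference of -1.26 for Avpr1a. Gm10710, inside Dchs2, was lower (-1.90) against a difference of -1.77 for Dchs2. These neighbours were picked after their values were seen, and many pairs did not move together. Called noncoding genes formed 224 pairs with tested coding genes whose exons they overlap. The coding gene was called the same way in 116, the other way in 16, and not called in 92. Malat1, the intergenic RNA with the highest CPM per kb in APCs (103 against 91.3 in FIPs), was lower (-0.18, adjusted p = 0.000301), and -0.10 (adjusted p = 0.178) was its difference with the kidney and muscle scores as covariates. Tug1, another abundant nuclear RNA, differed by -0.01 (interval -0.09 to 0.08) and missed the threshold. Small RNA genes include near-identical copies that can share reads, so they are given by count alone.

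The libraries labelled transgenic measured the same contrast in 10 other libraries. The 2 contrasts share no library in their means, but they share the variance estimate and the filter, so the tests are not independent. Over all tested genes, 7275 (41.7%) were called there, and 5414 of the 8288 control calls (65.3%) were called in the same direction. Secreted factors had 157 of 197 control calls also called (79.7%), transcription factors 229 of 315 (72.7%), receptors 195 of 272 (71.7%), channels and transporters 207 of 361 (57.3%) and noncoding RNAs 329 of 578 (56.9%). All 7 called Wnt ligands, 15 of 16 TGF-beta family ligands and 27 of 29 basic leucine zipper factors were called again, against 5 of 15 called gap junction, pannexin and aquaporin genes. For members described above the differences in control libraries and in those labelled transgenic were 4.04 and 4.88 for Arnt2, -1.43 and -1.28 for Tbx2, -1.25 and -1.41 for Lifr, and -1.70 and -1.63 for Bmp4. They were 2.72 and 4.07 for Dkk3, 2.41 and 4.15 for Angpt4 and 3.22 and 4.34 for Asic3. For genes of kidney and muscle they were -1.74 and -0.62 for Slc6a18 and -1.50 and -0.44 for Ryr1. The lowest adjusted p of the interaction of cell type and genotype among the genes named was 0.0669, so none of these pairs of values was shown to differ.

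**Figure D5:**
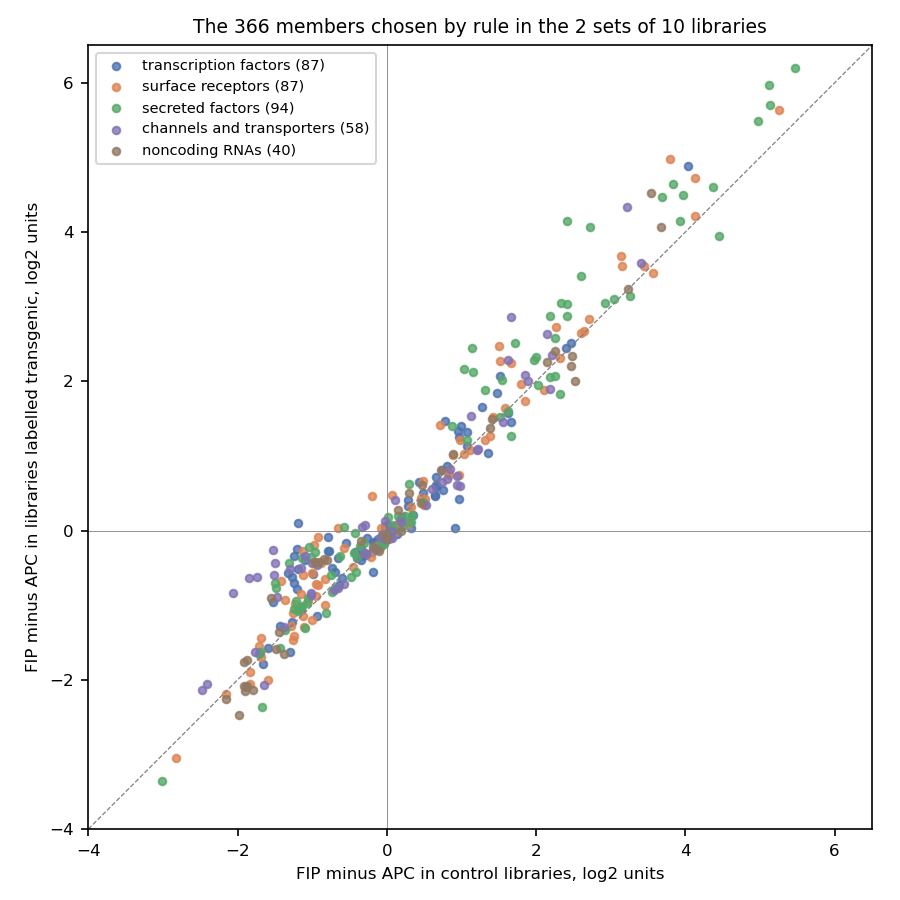
FIP minus APC differences (log2 units) of the 366 members chosen by rule, in control libraries (horizontal axis) and in libraries labelled transgenic (vertical axis), coloured by class, with a dashed line of equal values. Most points follow the line; Angpt4 and Dkk3 lie above it at the right, and Slc6a18 and Ryr1 at the left lie closer to 0 in the libraries labelled transgenic.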

How the data were processed

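RNA from sorted cells was sequenced as polyadenylated RNA. The authors deposited 1 table of log2 CPM (log2 of a gene's count scaled to the library total), in which a CPM of 1 or less is listed as 0; that scale was found from the values. The submitters' processing notes name Trim Galore 0.4.1, HISAT2 2.0.1, featureCounts 1.4.6, DESeq2 1.6.3 and the builds GRCm38 and mm10. Read totals were estimated from the steps of low values, of which 74.6 to 78.5% came out whole, so no count test was run.

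From the table, limma 3.58.1 (R 4.3.3) was fitted with a variance trend to all 20 libraries, with 1 mean per group and 16 residual degrees of freedom. Of 54304 genes, 17435 were above 0 in at least 5 libraries and were tested, with Benjamini-Hochberg adjustment. On simulated data 78.7% of changes of 0.5 log2 units, 94.3% of 1 and 100% of 2 were recovered. Gene models were those of GENCODE M21, which matched 54276 genes, and promoters those of RefSeq.

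Gene families and marker lists were chosen with earlier results of these data known. Within each family the rule names up to 3 genes per direction, ranked by size, that were called, did not overlap and reached a mean of 2 log2 CPM in the higher group. It also names the member with the highest CPM per kb in each population and the one with the highest level among those not called. The rule gave 366 genes, of which 221 are named in the text and the others are not reported here, and those described with all their values were picked among them after the values were seen, as were Cd55, Cd55b, Dio3, Adap2, Dchs2 and Cryba4 as neighbours and Wnt11, Mmp10 and Slco2a1 for their promoters. Alternatives covered the scale, filter, normalization, variance estimate, libraries in the fit, replicate block, covariates and each replicate left out. Libraries of 1 group are separate samples in the labels.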

Additional observations from a re-analysis of the deposited data

Results flagged for a closer look

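In 22 of 436 groups of 5 control libraries, 1 library lay apart from the other 4 by more than 0.71 of the group's range (Dixon's test). Chance marks about 1 in 20 groups. APC replicate 2 was the outlying library for Lmx1a (0.04 log2 CPM, others 0.0 to 0.0). APC replicate 3 was the outlying library for Inhba (3.99 log2 CPM, others 3.69 to 3.75) and Prrx1 (8.05 log2 CPM, others 7.87 to 7.92). APC replicate 4 was the outlying library for Foxk1 (6.64 log2 CPM, others 6.59 to 6.60) and Wisp2 (3.81 log2 CPM, others 4.55 to 4.64). APC replicate 5 was the outlying library for Gpr182 (4.99 log2 CPM, others 4.42 to 4.57), Nr4a3 (6.83 log2 CPM, others 7.25 to 7.41), Pkd2 (8.26 log2 CPM, others 8.31 to 8.33) and Rbpj (7.22 log2 CPM, others 7.33 to 7.36). FIP replicate 1 was the outlying library for Ebf3 (4.86 log2 CPM, others 5.15 to 5.26). FIP replicate 3 was the outlying library for Gjb5 (1.77 log2 CPM, others 2.36 to 2.60) and Ptprn (2.97 log2 CPM, others 3.78 to 3.93). FIP replicate 4 was the outlying library for Igfbp5 (8.93 log2 CPM, others 8.77 to 8.81) and Robo1 (7.55 log2 CPM, others 7.32 to 7.36). FIP replicate 5 was the outlying library for Abcc9 (4.18 log2 CPM, others 4.68 to 4.84), Cxcl2 (6.99 log2 CPM, others 7.22 to 7.26), Gpr182 (3.65 log2 CPM, others 2.80 to 2.92), Gsc (0.0 log2 CPM, others 0.56 to 0.66), Il1rl1 (6.49 log2 CPM, others 5.0 to 5.31), Itga2 (4.29 log2 CPM, others 4.92 to 4.98), Slc10a6 (7.47 log2 CPM, others 7.60 to 7.65) and Slc38a2 (8.70 log2 CPM, others 8.84 to 8.87). 8 of the 22 were FIP replicate 5. No gene named had a called interaction of cell type and genotype in limma, the lowest adjusted p being 0.0669.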

How the results depend on the processing

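Lower calls depended most on the libraries and covariates used. With APC replicates 1 and 2 alone 2827 genes (16.2%) were lower. Among them were 109 receptors (26.3%), 56 secreted factors (17.8%), 146 channels and transporters (26.4%) and 239 noncoding RNAs (15.6%). With the kidney and muscle scores as covariates 1944 genes (11.1%) were lower and 2467 (14.1%) higher. Lower members were 119 transcription factors (15.3%), 75 receptors (18.1%), 40 secreted factors (12.7%), 99 channels and transporters (17.9%) and 166 noncoding RNAs (10.9%). In that fit 62 channels and transporters (11.2%) and 61 noncoding RNAs (3.99%) were higher. With the erythroid score 1833 genes (10.5%) were lower and 2323 (13.3%) higher. Lower members, in the same order, were 117 (15.1%), 70 (16.9%), 39 (12.4%), 95 (17.2%) and 150 (9.81%). In that fit 83 transcription factors (10.7%) and 52 noncoding RNAs (3.4%) were higher. Lower noncoding RNAs numbered 250 (16.4%, against 23.7% of all tested genes) after quantile normalization and 296 (31.1%) without those that overlap coding exons. Among genes named that were called in either fit, differences changed sign with the kidney and muscle scores for Acvr1c (0.33), Adipoq (0.19), Aqp3 (0.65), Aqp7 (0.08), Atp2a1 (0.07), Hnf4a (0.05), Hoxa9 (0.21), Il6st (-0.16), Rxrg (0.20), Ryr1 (0.03) and Sox6 (0.12). With the erythroid score they did so for Acvr1c (0.36), Adipoq (0.21), Aqp3 (0.87), Aqp7 (0.16), Foxo3 (-0.21), Hnf4a (0.24), Hoxa9 (0.35), Il6st (-0.16), Lrp2 (0.19), Rxrg (0.16), Slc5a8 (0.21), Slc6a18 (0.24) and Sox6 (0.22). Of 105 genes named as higher, 105 kept their call with the kidney and muscle scores and with APC replicates 1 and 2 alone, and 104 with the erythroid score (Alx4 did not); of 87 named as lower the counts were 71, 76 and 71. Among genes that kept their call, differences moved by over 1.5 times with the kidney and muscle scores for Ebf3 (-0.36), Klf10 (0.79), Slc10a6 (-0.49), Sort1 (-0.34) and Zbtb16 (-0.56), for Cacng4 (-2.88) and Rspo3 (-1.79) with APC replicates 1 and 2 alone, and for Slc13a1 in both settings (-1.35 and -1.30). The cause was not tested.

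Leaving out each of the 10 control libraries gave 3169 to 3329 genes higher and 4358 to 4939 lower. The ranges, higher then lower, were 120 to 133 and 167 to 190 for transcription factors, 101 to 105 and 158 to 184 for receptors, 107 to 113 and 78 to 87 for secreted factors, 82 to 97 and 241 to 266 for channels and transporters, and 93 to 106 and 396 to 478 for noncoding RNAs. Calls shared with the libraries labelled transgenic ranged from 5094 to 5493 over 20 libraries left out. Single libraries decided the threshold for Pdgfra (0.14, adjusted p = 0.0106, without APC replicate 1), S1pr3 (0.21, adjusted p = 0.0163, without APC replicate 1; 0.20, adjusted p = 0.0338, without FIP replicate 4), Igf1 (-0.60, adjusted p = 0.0423, without APC replicate 4), Sox9 (-0.29, adjusted p = 0.00895, without APC replicate 5) and Jun (-0.13, adjusted p = 0.0301, without FIP replicate 3), in limma.

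Replicate numbers were not taken as pairs, because 3 of 5 same-numbered FIP and APC libraries correlated at 0.1 or less in their deviations from the group means (0.2536, 0.05977, 0.03642, 0.09709 and 0.2694 for replicates 1 to 5). All 5 were positive, the other 20 combinations ranged from -0.2175 to 0.07537 with a mean of -0.036, and 6 of the 10 libraries correlated best with their own number, so whether libraries of one number share animals cannot be told from these values. With the number as a replicate block 3500 genes were higher and 5156 lower. Depth of 6.76 to 8.22 megareads and the listing of CPM up to 1 as 0 limit what low genes can show.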
